A study of Mus musculus with 16 samples.

Results

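The secreted modulators of Wnt signalling described here are 10 mouse genes chosen by their symbols, of 19938 genes measured. They comprise the secreted Frizzled-related proteins (Sfrp1, Sfrp2, Frzb, Sfrp4, Sfrp5), the Wnt inhibitory factor gene Wif1 and the R-spondins (Rspo1, Rspo2, Rspo3, Rspo4). All 10 were measured, each by 1 probe set with a single gene symbol, so no choice between probe sets was needed.

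Expression was measured on 16 Affymetrix gene arrays in 4 groups of mouse cells. In the treated group, neurons labelled as midbrain dopaminergic (mdDA) were derived from induced pluripotent stem cells (iPSCs) and differentiated with recombinant human WNT1 and DKK3 (5 biological replicates). The control group was labelled as controls and, per the design text, differentiated in the absence of these proteins (5 biological replicates). Primary mdDA neurons were isolated from the ventral midbrain of embryos at E14.5 or at E13.5 (3 arrays each). The labels call these arrays technical replicates, so each stage is 1 sample and the number of animals behind it is not given in the sources used here. All groups share the genotype Pitx3GFP/+, in which 1 allele of the transcription factor gene Pitx3 carries green fluorescent protein, on a mixed C57BL/6 x 129/Ola background. The design text states that cells of all groups were sorted for GFP. In the sample labels the sort is given for primary cells only. Labels give neither the number of iPSC lines nor whether replicates were separate cultures, so p-values measure only the spread between these samples.

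Secreted Frizzled-related proteins carry a cysteine-rich domain like that of Frizzled receptors and can bind Wnt proteins outside the cell. Wif1 binds Wnts through a different domain. R-spondins act in the other direction: they bind Lgr receptors and the ubiquitin ligases Znrf3 and Rnf43, which keeps Frizzled receptors at the cell surface and raises the response to Wnt. Wnt signalling is known to guide the specification of midbrain dopaminergic neurons, and Sfrp1 and Sfrp2 have been linked to their development in mice.

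Values are log2 expression levels, on which a difference of 1 is a 2-fold change. Levels of different genes come from different probes and are not set against each other. On every array the level of each of the 10 genes lay above the array's lower quartile, which was between 4.32 and 4.70. The array medians were 5.85 to 6.02. Frzb exceeded the array median on 2 of 16 arrays, Sfrp4 on 4, and Sfrp5, Wif1 and Rspo4 on 0. No detection call was used here, so low levels of these genes cannot be told apart from background.

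The labelled cell type was checked by its markers. Pitx3 itself was at 5.67 to 6.17 on treated and 5.60 to 6.16 on control arrays, against 7.38 to 7.67 at E14.5 and 7.16 to 7.74 at E13.5. All 9 dopaminergic markers (Th, Slc6a3, Slc18a2, Ddc, Nr4a2, Pitx3, En1, Foxa2, Lmx1b) were lower in control iPSC-derived cells than in primary neurons, as were 8 of 8 general neuronal markers. By contrast, 9 of 10 mesenchyme and fibroblast markers, 6 of 7 astrocyte and radial glia markers, 4 of 6 choroid plexus markers and 2 of 7 cartilage markers were higher. None of 6 pluripotency markers passed (median log2 difference 1.69, with Nanog at 2.29 and an adjusted p of 0.0502). Counts for treated cells were the same in each of these lists. The treated and the control array numbered 5 stood apart from the others by high dopaminergic levels (Th at 9.22 and 8.52, against at most 5.93 and 6.17 on the other arrays of each group), so results that change are also given without them. Without both, 6 of 6 pluripotency markers were higher in treated and 5 of 6 in control cells (median log2 differences 2.18 and 2.12), as were 7 of 7 astrocyte and radial glia markers in both groups, while the counts of the other marker lists were as before. The iPSC-derived samples are called cells below, because their markers go against the label of neurons.

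**Figure D1:**
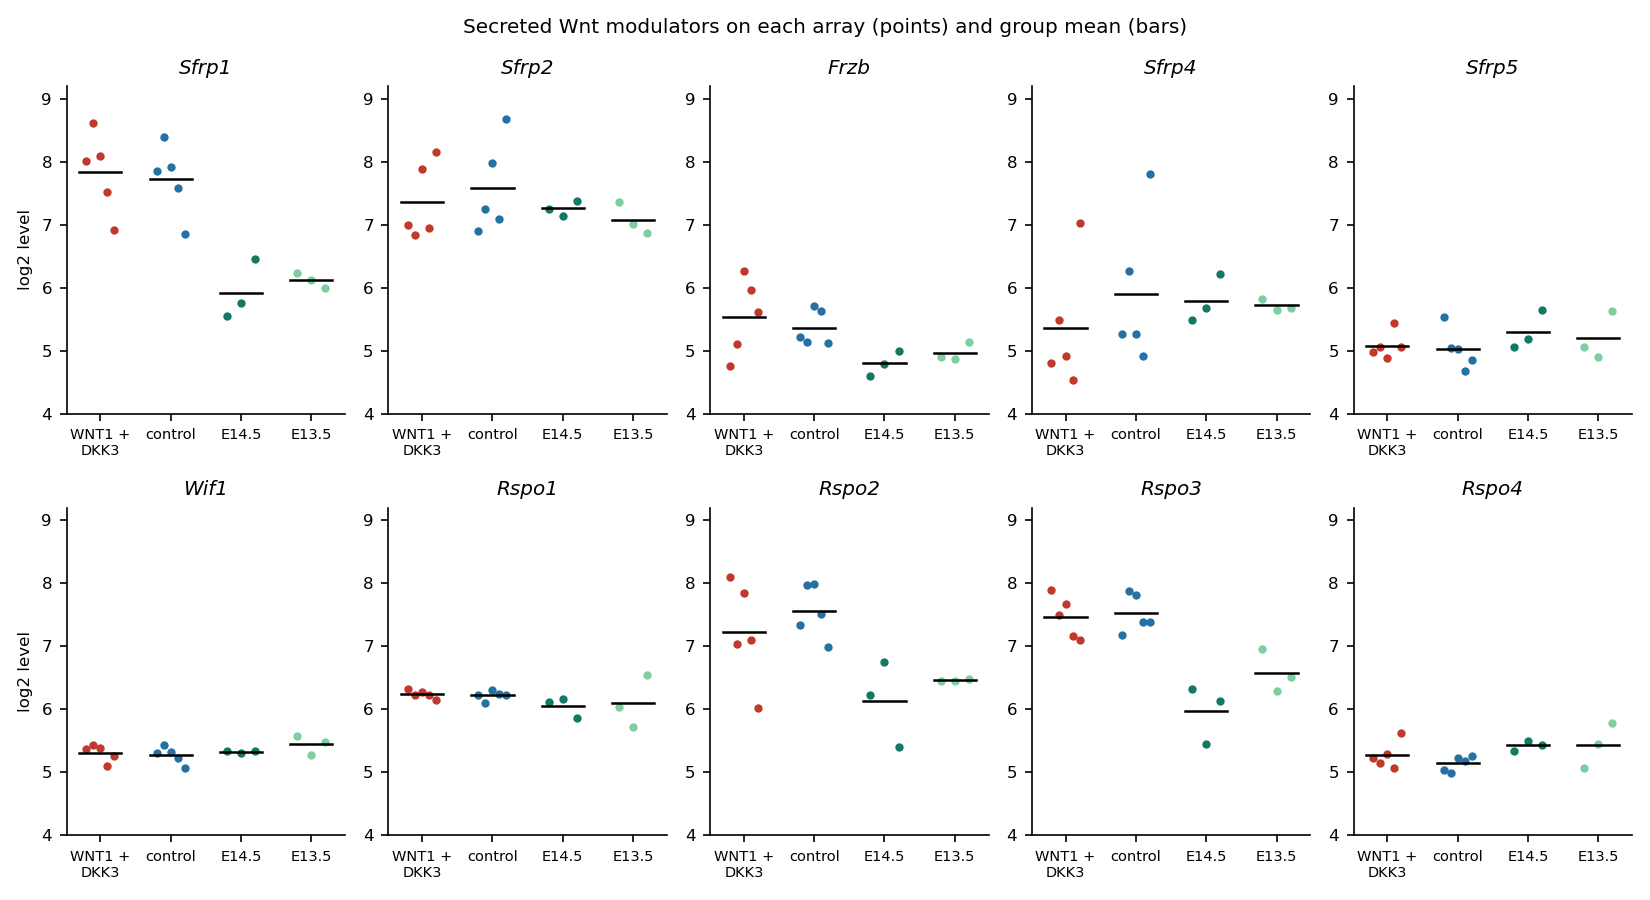
Log2 level (y axis) of each secreted Wnt modulator on every array (points), by group along the x axis: WNT1 and DKK3, control, E14.5 and E13.5. Bars are group means. Sfrp1 and Rspo3 lie higher on all 10 iPSC-derived arrays than on the 6 primary arrays, and Sfrp4 ranges from 4.54 to 7.80 within the iPSC-derived groups.

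The first comparison asked how iPSC-derived cells differed from primary neurons of the same reporter. Sfrp1 and Rspo3 were higher in treated cells, by 3.51-fold and 2.28-fold. Sfrp1, Rspo2 and Rspo3 were higher in control iPSC-derived cells, by 3.26-fold, 2.42-fold and 2.38-fold. None of the 10 genes passed as lower in either group in this fit. Centring arrays on their median called 1 lower in treated and 2 in control cells, and leaving out array 5 called Rspo4 lower in control cells, as given with its values. Of all genes tested, 41.1% passed in treated and 41.9% in control cells (limma, adjusted p under 0.05), and 19.9% in treated and 19.3% in control cells passed as higher. With 2 of 10 genes called in treated and 3 of 10 in control cells, all higher, the share was near or above the share of all genes called higher and below the share called in either direction. The median difference of the 10 genes was 0.18 in treated and 0.28 in control cells, against -0.09 and -0.11 over all genes. Both comparisons use the same primary samples.

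Sfrp1 encodes a Wnt-binding modulator of the family. Its log2 level was 8.01, 8.61, 8.09, 7.51 and 6.92 on treated arrays 1 to 5 and 7.85, 8.39, 7.91, 7.58 and 6.85 on control arrays 1 to 5. On primary arrays it was 5.55, 5.75 and 6.45 at E14.5 and 6.23, 6.12 and 5.99 at E13.5. Every iPSC-derived array was above every primary array, and the array numbered 5 was the lowest of its group in both groups. The log2 difference from primary neurons was 1.81 in treated (SE 0.42, 95% interval 0.90 to 2.73, adjusted p = 0.00435) and 1.70 in control cells (SE 0.42, 0.79 to 2.62, adjusted p = 0.00632). Without the arrays numbered 5 the differences were 2.04 and 1.92. With E13.5 alone as the primary sample, the call in control cells was lost (adjusted p = 0.0601, and 4.72e-05 to 0.0601 over 20 alternatives).

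Rspo3, an R-spondin that raises Wnt responses in many embryonic tissues, was at 7.89, 7.49, 7.66, 7.16 and 7.09 on treated arrays and at 7.17, 7.88, 7.81, 7.39 and 7.38 on control arrays. Primary levels were 6.32, 5.45 and 6.13 at E14.5 and 6.95, 6.28 and 6.51 at E13.5. Again no iPSC-derived array reached down to a primary one, although the lowest treated array (7.09) was close to the highest at E13.5 (6.95). The log2 difference was 1.19 in treated (SE 0.25, 0.63 to 1.74, adjusted p = 0.00266) and 1.25 in control cells (SE 0.25, 0.70 to 1.81, adjusted p = 0.00181). Against E13.5 alone it was 0.88 in treated cells and no longer passed (adjusted p = 0.0631, and 0.000175 to 0.0631 over 20 alternatives).

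Rspo2, a close relative of Rspo3, was at 8.10, 7.04, 7.84, 7.09 and 6.02 on treated arrays and at 7.34, 7.97, 7.98, 7.51 and 6.99 on control arrays. In primary neurons it was at 6.22, 6.74 and 5.40 at E14.5 and at 6.44, 6.44 and 6.48 at E13.5. Control arrays did not overlap the primary ones, whereas treated array 5 lay within their range. In control cells the log2 difference was 1.27 (SE 0.45, 0.29 to 2.26, adjusted p = 0.0397). Of 20 alternatives, 7 ended that call, with adjusted p between 0.00223 and 0.206, among them without control replicate 2, 3 or 4 and with either stage alone. In treated cells the difference was 0.93 (SE 0.45, -0.05 to 1.92, adjusted p = 0.115), and without both arrays numbered 5 it was 1.23 with an adjusted p of 0.00692 (0.0122 without treated array 5 alone). Although only the control difference passed, treated and control cells did not differ detectably from each other in Rspo2 (-0.34, 95% interval -1.12 to 0.44).

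Because these are bulk samples, fewer cells of a type and less RNA per cell cannot be told apart. Markers of several other cell types were also higher on iPSC-derived than on primary arrays. On the arrays numbered 5, where Sfrp1 and Rspo2 were the lowest of each group, the lists differed. There the mesenchyme mean was the highest of its group (9.36 in treated, 9.45 in control). The astrocyte and radial glia mean (9.17 and 9.01) and the pluripotency mean (5.74 and 5.79) were the lowest. The mean log2 level over 10 mesenchyme markers was 8.37 to 9.36 on treated and 8.52 to 9.45 on control arrays, against 5.78 to 5.89 at E14.5 and 5.61 to 5.83 at E13.5. Over 7 astrocyte and radial glia markers it was 9.17 to 10.18 on treated and 9.01 to 10.04 on control arrays, against 6.55 to 6.96 at E14.5 and 6.08 to 6.50 at E13.5. The choroid plexus markers were at 7.63 to 7.90 on treated and 7.19 to 8.31 on control arrays, against 5.54 to 5.58 and 5.61 to 5.75 in the primary stages. Examples of such markers in control cells were the proteoglycan gene Dcn (log2 difference 5.68), the gap junction gene Gja1 (5.67) and the transthyretin gene Ttr (6.67). Of the cartilage markers only Cnmd (3.35) and Sox9, a gene that glia express as well (2.65), were higher, and the other 5 of 7 lay between -0.22 and 0.12. Pluripotency markers averaged 5.74 to 8.71 on treated and 5.79 to 8.04 on control arrays, against 5.47 to 5.97 at E14.5 and 5.95 to 6.14 at E13.5. The part of these cell types in the result was not tested.

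**Figure D2:**
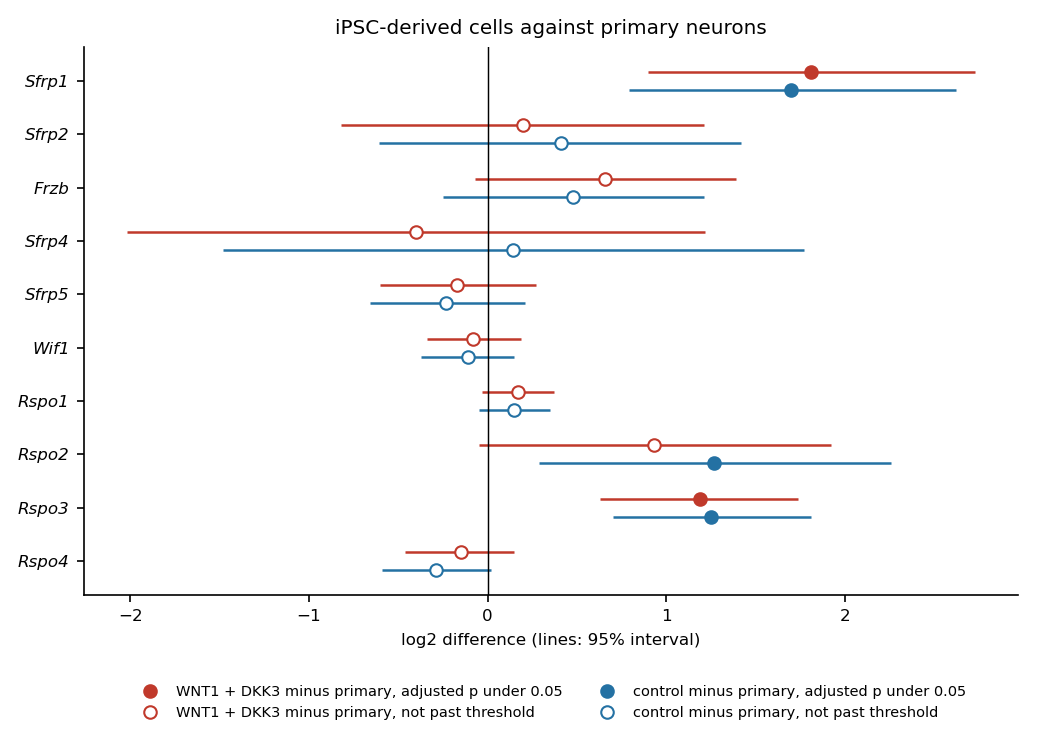
Log2 difference (x axis) of WNT1 and DKK3 cells (red) and control cells (blue) from primary neurons for each gene, with 95% intervals as lines. Filled points have an adjusted p under 0.05: Sfrp1 and Rspo3 in both groups and Rspo2 in control cells only, at 1.27 against 0.93 in treated cells.

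Sfrp2, another Wnt-binding antagonist of the same family, did not pass in either group but varied widely between iPSC-derived arrays. Its level was 7.0, 6.84, 7.88, 6.95 and 8.15 on treated arrays and 6.89, 7.24, 7.98, 7.09 and 8.68 on control arrays. Primary neurons had 7.25, 7.14 and 7.38 at E14.5 and 7.36, 7.01 and 6.86 at E13.5. The arrays numbered 3 and 5 were the highest of both groups and lay above all primary arrays, while the others lay near the primary range. The log2 difference from primary neurons was 0.20 in treated (95% interval -0.82 to 1.21) and 0.41 in control cells (-0.61 to 1.42).

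The start site region of Sfrp2 is shown because this gene and Sfrp4 were both high on the arrays numbered 5 and, of these 2, only Sfrp2 has an entry in the RefSeq promoter table (6 of the 10 genes have one). The window runs from 250 bases before to 50 bases after the start, at chr3:83766071-83766370 of GRCm38.p6 on the plus strand, and capitals mark CG dinucleotides.
Sfrp2: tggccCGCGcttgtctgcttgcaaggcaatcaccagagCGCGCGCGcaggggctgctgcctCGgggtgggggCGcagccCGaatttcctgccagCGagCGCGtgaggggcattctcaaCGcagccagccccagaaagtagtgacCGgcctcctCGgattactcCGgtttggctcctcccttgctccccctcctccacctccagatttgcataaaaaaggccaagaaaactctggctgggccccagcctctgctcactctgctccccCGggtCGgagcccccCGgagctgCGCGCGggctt
It holds 22 CG dinucleotides and 66.0% G and C, against a median of 7 and 52.7% over 32851 windows of this length. This was not particular to Sfrp2. Windows of the 6 genes ran from 15 and 61.3% for Sfrp5 to 31 and 71.0% for Rspo4. Rspo4 was also above the other arrays of its group on both arrays numbered 5. CG-rich promoters of this family are known as sites of DNA methylation in human tumours, which was not measured here.

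Sfrp4 encodes a further family member with known roles in bone and other mesenchymal tissue. It was at 4.80, 5.48, 4.92, 4.54 and 7.03 on treated arrays and at 5.27, 6.26, 5.27, 4.91 and 7.80 on control arrays, a span of 3.25 over the 12 samples and the widest of the 10 genes. Primary levels were closer together, at 5.48, 5.68 and 6.21 at E14.5 and 5.82, 5.65 and 5.68 at E13.5. In both iPSC-derived groups the array numbered 5 was above all primary arrays and 3 of 5 arrays were below them, while control array 2 was also above. The log2 difference from primary neurons was -0.40 in treated (-2.02 to 1.22, adjusted p = 0.681) and 0.14 in control cells (-1.48 to 1.77, adjusted p = 0.885). Without both arrays numbered 5 these became -0.82 (adjusted p = 0.0655) and -0.33 (adjusted p = 0.431), so the sign in control cells changed, as it did without control array 5 alone (-0.33).

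Frzb encodes Sfrp3, an inhibitor first known from cartilage and from frog embryos. Its level was 4.75 to 6.26 on treated and 5.12 to 5.70 on control arrays, against 4.60 to 5.00 at E14.5 and 4.86 to 5.14 at E13.5. In each iPSC-derived group 3 of 5 arrays were above all primary arrays. The log2 difference was 0.66 in treated (-0.07 to 1.39, adjusted p = 0.134) and 0.48 in control cells (-0.25 to 1.21, adjusted p = 0.261). For treated cells the difference passed without treated replicate 1, when it was 0.85 (adjusted p = 0.0336, and 0.0154 to 0.383 over 20 alternatives).

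The promoter windows of the 6 genes with an entry (Sfrp2, Frzb, Sfrp5, Wif1, Rspo1, Rspo4) were searched on both strands for CTTTGA and CTTTGT, 2 forms of the core bound by the TCF/LEF factors of the Wnt pathway. Only that of Frzb held a match, at chr2:80447347-80447646 of GRCm38.p6 on the minus strand, and it is shown for that reason with the match in capitals.
Frzb: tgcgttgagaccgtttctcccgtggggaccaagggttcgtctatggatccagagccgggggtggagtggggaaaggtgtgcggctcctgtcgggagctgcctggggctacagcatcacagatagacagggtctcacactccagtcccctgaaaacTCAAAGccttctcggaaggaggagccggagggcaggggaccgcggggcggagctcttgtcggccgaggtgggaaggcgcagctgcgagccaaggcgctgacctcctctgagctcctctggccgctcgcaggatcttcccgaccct
The match is CTTTGA on the strand opposite to the gene, starting 95 bases before the start site. Of all 32851 windows of this length, 31.2% held CTTTGA or CTTTGT, and 5257 windows held CTTTGA.

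The remaining genes lay within narrow ranges. Rspo1 was at 6.14 to 6.32 on treated and 6.09 to 6.31 on control arrays, against 5.86 to 6.16 at E14.5 and 5.72 to 6.54 at E13.5. Sfrp5 was at 4.88 to 5.43, 4.67 to 5.53, 5.05 to 5.65 and 4.90 to 5.63 in treated, control, E14.5 and E13.5 arrays. Wif1 was at 5.10 to 5.43, 5.07 to 5.43, 5.30 to 5.33 and 5.27 to 5.58 in the same order. Rspo4, known for its role in nail development, was at 5.07 to 5.62, 4.99 to 5.25, 5.34 to 5.50 and 5.06 to 5.78. For each of these 4 genes both iPSC-derived groups overlapped the range of the 6 primary arrays, and their differences from primary neurons lay between -0.17 and 0.17 in treated and between -0.29 and 0.15 in control cells. Low levels of Sfrp5, Wif1 and Rspo4 cannot be told apart from background. Every 95% interval of the 4 genes lay within a 2-fold difference. Of them, Rspo4 in control cells came nearest to the threshold (-0.29, SE 0.14, adjusted p = 0.113). It passed as lower there without both arrays numbered 5 (-0.32, adjusted p = 0.0361), without treated array 5 alone (adjusted p = 0.0467) and with median centring (-0.48, adjusted p = 0.00996). Median centring also called Rspo4 lower in treated cells (-0.36) and Wif1 lower in control cells (-0.30, limma, adjusted p = 0.0362 and 0.0497).

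Ordered by mean level, Sfrp1 and Frzb were highest in treated cells, then control, E13.5 and E14.5. Rspo2 and Rspo3 were highest in control cells, then treated, E13.5 and E14.5. Sfrp2 ran from control through treated and E14.5 to E13.5, and Sfrp4 from control through E14.5 and E13.5 to treated. For these 6 genes, arrays of treated and control cells overlapped, as did those of E14.5 and E13.5. For Sfrp1 and Rspo3 no iPSC-derived array overlapped the primary arrays, and for Rspo2 no control array did.

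The second comparison asked whether WNT1 and DKK3 changed these genes in iPSC-derived cells. None of the 10 passed in either direction with limma. In this fit without replicate numbers, no unadjusted p was below 0.05 among them (smallest 0.249, for Rspo4). Over all genes 0.0% passed, and 300 had an unadjusted p under 0.05, so the count for the 10 genes is that of the background. The median difference was 0.03, against 0.02 over all genes. For 7 of the 10 genes the 95% interval excluded a 2-fold change of the array level in either direction. It did not for Sfrp2, Sfrp4 and Rspo2 in this fit, which took no account of replicate numbers. Among the 7, Frzb exceeded the array median on 2 of 16 arrays and Sfrp5, Wif1 and Rspo4 on 0. At levels near background a narrow interval does not exclude a change in the transcript.

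Sfrp4 had the largest difference, at 5.35 ± 1.00 in treated and 5.90 ± 1.17 in control cells (SD, n = 5 each), a log2 difference of -0.55 (SE 0.59, 95% interval -1.85 to 0.76). Treated and control arrays overlapped widely. Between arrays of equal number, however, the difference was -0.46, -0.79, -0.35, -0.36 and -0.77, lower in treated cells in 5 of 5. Nothing in the labels ties arrays of equal number to a shared culture. Mean levels of the mesenchyme markers were lower in treated than in control cells for numbers 2 to 5 (9.01, 8.78, 8.37 and 9.36, against 9.31, 8.96, 8.52 and 9.45) and higher for number 1 (8.86 against 8.78). Their part in the Sfrp4 values was not tested.

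Rspo2 averaged 7.22 ± 0.81 in treated and 7.56 ± 0.42 in control cells, and Rspo3 7.46 ± 0.34 and 7.53 ± 0.31 (SD, n = 5 each). By equal number, Rspo2 differed by 0.76, -0.92, -0.14, -0.42 and -0.97, and Rspo3 by 0.72, -0.39, -0.14, -0.23 and -0.29. Both R-spondins were thus lower in treated cells for the numbers 2 to 5 and higher for number 1. The log2 difference of Rspo3 was -0.07 (SE 0.18, -0.47 to 0.34). Sfrp2 differed by -0.21 (SE 0.37, -1.03 to 0.60) and Sfrp1 by 0.11 (SE 0.33, -0.62 to 0.84), with the sign of Sfrp1 turning without treated replicate 2 or control replicate 5. For Frzb, Sfrp5, Wif1, Rspo1 and Rspo4 the differences were 0.18, 0.06, 0.04, 0.02 and 0.13.

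**Figure D3:**
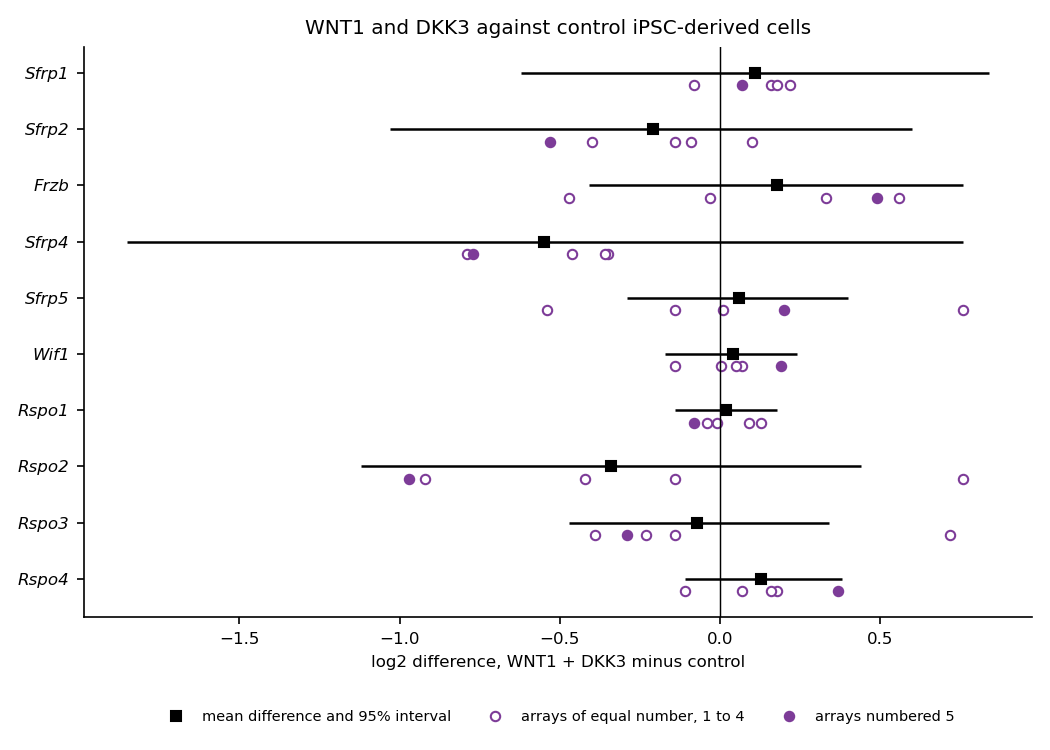
Log2 difference between WNT1 and DKK3 cells and control cells (x axis) for each gene. Black squares and lines are mean differences with 95% intervals, and circles are differences between arrays of equal replicate number (filled for number 5). All 5 circles of Sfrp4 lie below 0, between -0.79 and -0.35, while its interval runs from -1.85 to 0.76.

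The arrays numbered 5, which had the highest dopaminergic levels, also differed from the others in several of these genes, which is described here without a test. Array 5 was above the other 4 arrays of its group in both groups for Sfrp2, Sfrp4 and Rspo4, and below them in both for Sfrp1 and Rspo2. Over all genes, array 5 was outside the range of the others, on the same side in both groups, for 29.4%, with 2899 genes above and 2967 below. Sfrp4 stood at 7.03 on treated array 5, against 4.54 to 5.48 on the other treated arrays, and at 7.80 on control array 5, against 4.91 to 6.26. Sfrp1 stood at 6.92, against 7.51 to 8.61 in treated cells, and at 6.85, against 7.58 to 8.39 in control cells. Marker levels moved on the same arrays. Mean dopaminergic levels were 7.87 and 7.51 on treated and control array 5, against 5.75 to 6.04 and 5.84 to 6.04 on the others. Pluripotent cell markers averaged 5.74 and 5.79, against 7.54 to 8.71 and 7.51 to 8.04, and mesenchyme markers 9.36 and 9.45, against 8.37 to 9.01 and 8.52 to 9.31. Astrocyte and radial glia markers averaged 9.17 and 9.01, against 9.59 to 10.18 and 9.16 to 10.04, and general neuronal markers 8.11 and 7.89, against 6.17 to 6.47 and 6.15 to 6.55. On the arrays numbered 5, Sfrp1 and Rspo2 were thus low together with pluripotency and glial markers. Sfrp2 and Sfrp4 were high there together with mesenchymal, dopaminergic and general neuronal markers. On the other arrays this differed between genes and lists. Sfrp1 and the pluripotency mean were both highest on array 2 (8.61 and 8.71 in treated, 8.39 and 8.04 in control cells). Among numbers 1 to 4 both were lowest on array 4 (7.51 and 7.54 in treated, 7.58 and 7.51 in control cells). Rspo2, by contrast, was at 7.04 on treated array 2, the lowest of numbers 1 to 4. Sfrp2 was also high on treated and control array 3 (7.88 and 7.98), where dopaminergic means were 5.98 and 6.02. On control array 1 the glial mean was low as well (9.16), while Sfrp1 was at 7.85. The parts of these cell types in the result were not tested.

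**Figure D4:**
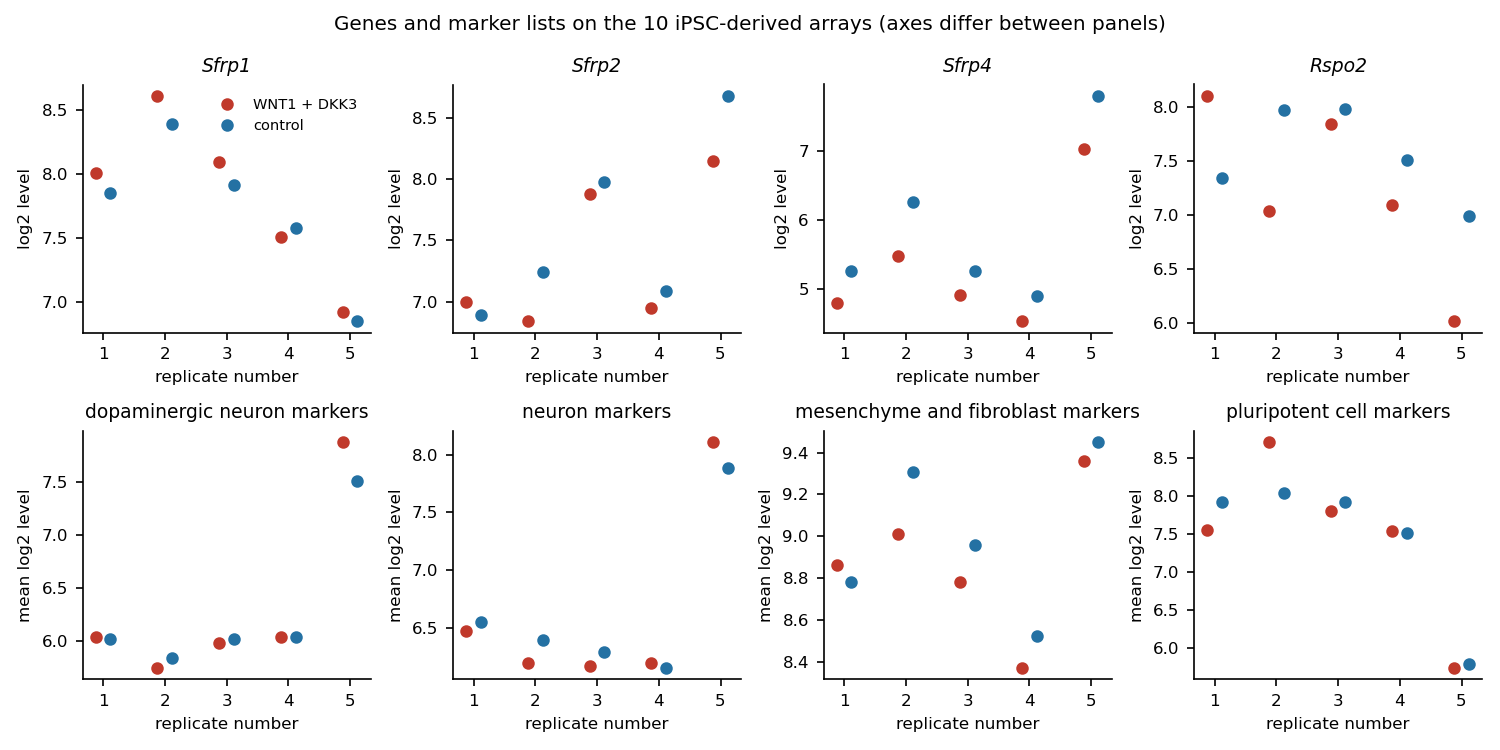
Log2 levels on the 10 iPSC-derived arrays by replicate number (x axis), for 4 genes (top) and for the mean of 4 marker lists (bottom), with WNT1 and DKK3 cells in red and control cells in blue. Array 5 has the highest Sfrp4 (7.03 and 7.80) and dopaminergic levels (7.87 and 7.51), and the lowest Sfrp1 (6.92 and 6.85).

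Likeness of pattern was measured by the Pearson correlation over 12 samples (10 iPSC-derived arrays and 2 stage means), for the 3 genes that spanned at least 2 log2 units. The search covered 18061 protein-coding genes, with predicted genes, small RNAs and symbols ending in Rik left out. The correlations describe the samples, which fall into an iPSC-derived and a primary cluster. Nearest to Sfrp1 were Top2a, a topoisomerase gene of dividing cells, Cyct, the testis cytochrome c gene, and Acp6, a lysophosphatidic acid phosphatase gene (0.978, 0.976 and 0.975). Within the 10 iPSC-derived arrays the same correlations were 0.946, 0.944 and 0.950, and over the 8 not numbered 5 they were 0.892, 0.874 and 0.880. The genes were picked over samples that include these arrays. Nearest to Sfrp4 were Ogfrl1, Scube1 and the transcription factor gene Hlf (0.963, 0.956 and 0.949), at 0.824, 0.785 and 0.853 over the 8 iPSC-derived arrays not numbered 5. Nearest to Rspo2 were the ciliary transport gene Ift22, the adenylate cyclase gene Adcy8 and Arhgef26 (0.944, 0.920 and 0.916), at 0.878, 0.919 and 0.776 over those 8. Among the 10 genes themselves, Rspo2 and Rspo3 had similar patterns in each set of samples, with correlations of 0.85 over 12 samples, 0.84 over 10 iPSC-derived arrays and 0.86 over the 8 not numbered 5. Sfrp2 and Sfrp4 correlated at 0.72 over the 10 arrays but at 0.04 over those 8, so their likeness rested on the arrays numbered 5.

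The primary stages were compared to see whether the genes differ between E14.5 and E13.5. With 1 sample per stage there is no test, and a gene counted as different where the stage means differed by at least 1 and the technical arrays did not overlap. None of the 10 genes did, against 0.241% of all genes, and for each of the 10 the arrays of the stages overlapped, while those of 9.68% of all genes did not. Rspo3 had the largest difference, at 5.97 ± 0.46 at E14.5 and 6.58 ± 0.34 at E13.5 (SD of 3 technical arrays), a log2 difference of -0.61. Rspo2 differed by -0.34, with 1 low array of 5.40 at E14.5, and Sfrp1 by -0.20. For the other 7 genes the difference was between -0.17 and 0.18.

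The genes of the R-spondin receptors and ligases and of the Wnt co-receptors were measured in the same fits. Of 7 such genes, 4 were higher in both iPSC-derived groups and 0 were lower in this fit. Of all genes, 19.9% were higher and 21.3% lower in treated cells, and 19.3% and 22.5% in control cells. Lrp5, a Wnt co-receptor gene, was at 7.83 to 8.09 on treated and 7.78 to 8.30 on control arrays, against 6.04 to 6.49 at E14.5 and 6.01 to 6.64 at E13.5. These groups did not overlap, and the log2 difference was 1.70 in treated and 1.70 in control cells (SE 0.14 each, adjusted p = 1.41e-06 and 1.34e-06). The second co-receptor gene, Lrp6, was higher by 0.71 in treated and 0.87 in control cells. Lgr4, an R-spondin receptor gene, was higher by 0.78 and 0.84 (adjusted p = 0.00619 and 0.00385). Znrf3, whose ligase R-spondins remove from the membrane, was higher by 0.74 and 0.73 (adjusted p = 0.0125 and 0.0132). With E14.5 alone as the primary sample the calls of Lgr4 and Znrf3 were lost in both groups (adjusted p = 0.128 and 0.112 in treated, 0.0899 and 0.114 in control cells), and with E13.5 alone that of Lrp6 in treated cells (0.0591). Quantile normalization lost that of Znrf3 in both groups (0.0781 and 0.0752). Lgr5, Lgr6 and Rnf43 did not pass, at -0.27, 0.01 and -0.0016 in treated cells and at -0.29, 0.01 and 0.05 in control cells. In control cells Lgr6 turned negative with quantile normalization or median centring, and Rnf43 with median centring. Median centring called Lgr5 lower in both groups, at -0.47 in treated and -0.48 in control cells (limma, adjusted p = 0.0337 and 0.0325). The list median was 0.71 in treated and 0.73 in control cells, against -0.09 and -0.11 over all genes. None of the 7 passed between treated and control cells or differed between the stages.

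Between control cells and primary neurons, 19.3% of all genes passed as higher and 22.5% as lower, and other genes of the pathway also passed in both directions. Of 15 further extracellular inhibitors and their receptors, 6 were higher and 3 lower, with the largest differences for Igfbp4 (3.84), which encodes an IGF-binding protein that can also bind Wnt receptors, Draxin (-3.22), an axon guidance gene, and Sostdc1 (2.73), a BMP and Wnt antagonist gene. Of 21 Wnt ligand and secretion genes, 4 were higher and 3 lower, near or below the shares of all genes. Among them Wls, the gene of the Wnt carrier protein, was higher by 3.32, Wnt8b by 1.82, and Wnt5a was lower at -1.34, which did not pass in 9 of 20 alternatives (adjusted p between 0.00117 and 0.202). Of 14 Frizzled and other receptor genes, 6 were higher and 3 lower, led by Fzd7 (1.87), Fzd2 (1.65) and Fzd6 (1.40). Of 13 feedback and target genes of beta-catenin, some of which the other lists also hold, 5 were higher and 1 lower, with Ccnd1, the cyclin D1 gene, at 2.15 and Axin2, a negative feedback gene, at 1.23. List medians were 0.05, -0.01, 0.38 and 0.15 in this order, against -0.11 over all genes. In treated cells the counts of higher and lower genes were 5 and 1, 4 and 2, 6 and 3, and 5 and 0. Of all genes, 19.9% passed as higher and 21.3% as lower there. Between treated and control cells 0 genes of these 4 lists passed.

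**Figure D5:**
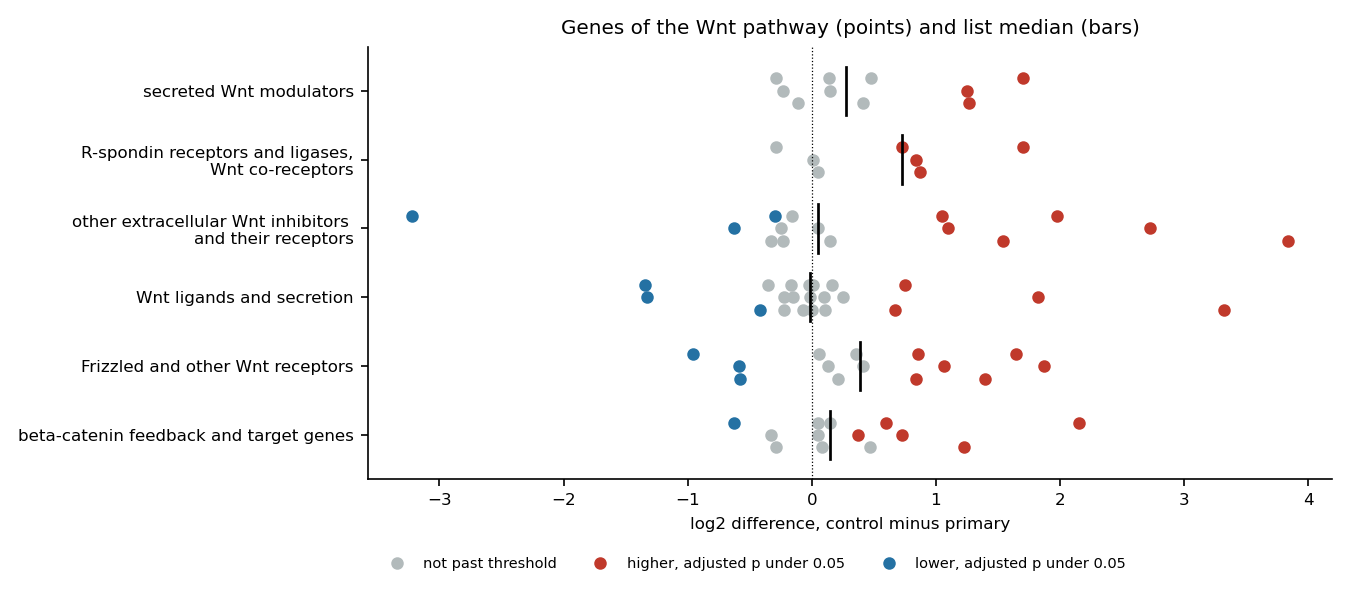
Log2 difference between control cells and primary neurons (x axis) for the secreted modulators and 5 other lists of the Wnt pathway (rows), with points for genes and bars for list medians. Red genes were higher and blue genes lower at an adjusted p under 0.05. Medians lie between -0.01 for ligands and 0.73 for the R-spondin receptor list.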

How the data were processed

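The authors deposited log2 expression values for 35556 probe sets on 16 arrays. Per the submitters' processing notes, RMA and Affymetrix Expression Console 1.2 were used. Per the labels' protocols, RNA was amplified before labelling. No detection p-values or scanner files were used here. Precision is limited by how many arrays there are.

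The platform annotation paired 21789 probe sets with 1 symbol and 1621 with several. Another 12146 were not listed. Symbols were updated through Entrez IDs for 21698. The probe set with the highest mean stood for each of 19938 genes, of which 999 had several, and all 10 members passed the filter on low levels. Promoters came from the RefSeq table of GRCm38.p6.

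Tests used limma 3.58.1 in R 4.3.3 (lmFit, eBayes, two-sided, Benjamini-Hochberg over 19938 genes, threshold 0.05), checked on simulated data. Treated and control cells were compared over 10 arrays. Comparisons with primary neurons used 12 samples, with each stage as the mean of its 3 technical arrays. Stages have 1 sample each and no test. Alternatives varied the arrays left out, low filter, scaling, probe set rule, moderation, block and primary sample.

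Named genes were the 10 members, all R-spondin receptor genes, the 3 largest differences of each other list, Th, Nr4a2 and Pitx3, and the 3 most alike genes. Dcn, Gja1, Ttr and Cnmd lead their lists. Members and lists were chosen with earlier results of these data known.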

Additional observations from a re-analysis of the deposited data

Results flagged for a closer look

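Of 40 groups of 5 arrays examined, 6 held an array far from the rest, and chance flags about 1 in 20 groups. None of the 10 secreted modulators was among them. Th, the rate-limiting enzyme gene of dopamine synthesis, stood at 9.22 on treated array 5 (5.29 to 5.93 on the others) and at 8.52 on control array 5 (5.34 to 6.17). Nr4a2, a transcription factor gene of dopaminergic neurons, stood at 9.16 on treated array 5 (6.84 to 7.18) and at 8.67 on control array 5 (7.02 to 7.24). The Wnt co-receptor gene Lrp6 was at 8.52 on treated array 5 (8.05 to 8.17), and Lrp5 was at 8.30 on control array 1 (7.78 to 7.92).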

How the results depend on the processing

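Between treated and control cells 0 of the 10 genes passed under 17 alternatives, and 154 of 170 values kept their sign. Leaving out single replicates, or both arrays numbered 5, gave -0.11 to 0.34 for Sfrp1, -0.41 to 0.06 for Sfrp2, -0.01 to 0.37 for Frzb, -0.03 to 0.18 for Sfrp5, -0.02 to 0.09 for Wif1 (-0.0025 without both arrays numbered 5), -0.01 to 0.04 for Rspo1 and -0.17 to 0.03 for Rspo3. Rspo1 was at -0.01 with quantile normalization and -0.0013 with median centring. The deviations of arrays of equal number correlated at 0.045 for number 1 and at 0.435 to 0.798 for the others. The labels do not pair the numbers, and the main fit took no account of them, so it leaves aside what these arrays share. With the replicate block 1 gene passed (834 with an unadjusted p under 0.05), and Sfrp4 stayed at -0.55 (SE 0.10, unadjusted p = 0.000282, adjusted p = 0.999 with limma). In control cells against primary neurons, leaving out replicates gave -0.33 to 0.39 for Sfrp4 (-0.33 without both arrays numbered 5), -0.04 to 0.09 for Lgr6 (-0.01) and -0.03 to 0.09 for Rnf43. In treated cells against primary neurons it gave -0.03 to 0.08 for Lgr6 and -0.09 to 0.12 for Rnf43 (0.12 without both). Median centring moved the median of all genes to -0.30 in both comparisons and the share of calls that were higher to 25.8% in treated (main 48.3%) and 25.6% in control cells (main 46.2%). It called 1 of the 10 genes lower in treated and 2 in control cells, and gave -0.04 for Rspo1, -0.01 for Sfrp2 and -0.20 for Lgr6 in treated and -0.04 for Rspo1, -0.04 for Sfrp4, -0.18 for Lgr6 and -0.14 for Rnf43 in control cells. Quantile normalization gave -0.03 for Rspo1 and -0.19 for Lgr6 in treated and -0.02 for Rspo1 and -0.16 for Lgr6 in control cells. With E13.5 alone, 1 of the 10 genes passed in treated and 1 in control cells, over all genes 5417 and 5527 passed, Lgr6 was at -0.04 in both and Rnf43 at -0.05 in control cells. With E14.5 alone 5315 and 5374 genes passed, and Rnf43 was at 0.09 in treated cells. With the 6 primary arrays and the stage as a random block, 4 of the 10 genes passed in treated cells, as did 53.4% of all genes. Of the stages, 526 genes differed by at least 0.5 and 1 by at least 2, and 80 to 105 differed without single technical arrays, against 48. The causes were not tested. With 5 arrays a group and no block, the intervals of Sfrp2, Sfrp4 and Rspo2 between treated and control cells did not exclude 2-fold differences. With the replicate block they did (-0.45 to 0.02, -0.76 to -0.33 and -0.83 to 0.15).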
